A study of Mus musculus with 6 samples.

Results

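The 9 genes described here are a set of neutrophil genes: S100a8, S100a9, Csf3r, Retnlg, Ly6g, Ngp, Camp, Il1r2 and Trem1. They were taken by name from a table of 34745 genes, and each name matched 1 row. The members were chosen by measured values of these libraries, their levels per library and the comparison of the diets, so for them the difference between the diets is a description and supports nothing. The RNA came from 6 subcutaneous tumours of the right flank of C57BL/6J mice. The animals ate either a normal diet (ND, 3 tumours) or a high cholesterol diet (HCD, 3 tumours). All 6 tumours are labelled as B16F10, the name of a mouse melanoma cell line, with no other agent or allele named. The make-up of the diets, their length and the age of the mice are not given in the sources used here. Tumours carry the numbers 1 to 3 in each diet, and the labels do not say whether each came from its own animal or culture, so a p-value reflects the spread among these 6 samples, which may be technical.

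Neutrophils are short-lived white blood cells that leave the bone marrow for inflamed tissue and tumours. The growth factor G-CSF, sensed through the receptor that Csf3r encodes, drives their formation and release, and chemokines that bind Cxcr2 draw them into tissue. They pack antimicrobial proteins into granules made at successive stages of maturation, so transcripts of granule proteins are mostly made by precursors in the marrow, while mature cells hold large amounts of S100a8 and S100a9. In tumours, neutrophils and related myeloid cells with high S100a8 and S100a9 are known for restraining T cells.

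Library totals ran from 20351637 to 26228074 counts, and 15539 genes had enough counts for the test of the diets, edgeR's quasi-likelihood test with Benjamini-Hochberg adjustment. No gene passed: 0 of the tested genes (0%) were called lower and 0 (0%) higher in HCD tumours, with a smallest adjusted p of 0.839. At an unadjusted p under 0.05 the same fit had 541 genes lower (3.48%) and 282 higher (1.81%). DESeq2, which gave fewer genes an adjusted p than edgeR did, called 6 genes lower and 0 higher, none of them a member. Of the members, only S100a8, S100a9, Csf3r and Il1r2 had an adjusted p in that fit. The other members could not have been called there. The melanoma label was set against 9 pigment cell genes. Tyr, Dct, Mlana and Oca2 had 0 counts in all 6 libraries, Tyrp1 had 1 count, and the summed level of the 9 genes was 4.20 to 11.1 CPM (a count relative to the TMM-scaled library total), most of it Mitf (2 genes tested, both positive, 0 past the test). The tumours are therefore called tumours labelled as B16F10. The neutrophil label of the set was read against its own members. Ly6g, the surface antigen by which mouse neutrophils are defined, had 0 to 30 counts per library, Camp 2 to 11 and Ngp 3 to 53. Retnlg, a gene of granulocytes, had 35 to 119. The members with the most counts, Csf3r (44.4% of the counts of the 9 genes), S100a9 (24.5%), Il1r2 (12.01%) and S100a8 (10.1%), are also made by some monocytes. Long genes collect more counts, and the gene length in the authors' values was 5.52 kb for Csf3r against 0.608 kb for Retnlg. In whole tumours, fewer cells of a type and less RNA per cell cannot be told apart.

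The 250 bases before the start of 4 members are shown because S100a8 and S100a9 lay together in all 6 libraries, Csf3r followed another order, and Ngp had its highest level in an HCD tumour. The sequences are RefSeq's for GRCm38.p6, the mm10 build, and all 9 members had an entry, Ly6g with 2 starts. RefSeq's start can differ from that of the GENCODE gene whose position is given with each member. For S100a8, Csf3r and Ngp, and for Ly6g and Camp, which are not shown, the window reaches past the GENCODE start. The Il1r2 window, also not shown, begins at 40085843, inside the GENCODE gene, which starts at 40074079. Capitals mark matches on either strand to the letters TTNNGNAA (bound by C/EBP factors, which drive granulocyte genes), GAGGAA (bound by PU.1, a myeloid factor encoded by Spi1) and TATAAA (the TATA box). In the S100a8 promoter, a match to GAGGAA on the other strand runs directly into the TATA box.
S100a8 (chr3:90668821-90669070, + strand): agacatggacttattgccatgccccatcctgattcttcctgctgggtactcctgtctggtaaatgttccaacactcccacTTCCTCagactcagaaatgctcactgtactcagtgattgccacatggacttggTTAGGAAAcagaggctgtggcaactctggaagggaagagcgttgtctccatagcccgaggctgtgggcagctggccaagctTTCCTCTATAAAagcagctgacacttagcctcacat
S100a9 (chr3:90695722-90695971, - strand): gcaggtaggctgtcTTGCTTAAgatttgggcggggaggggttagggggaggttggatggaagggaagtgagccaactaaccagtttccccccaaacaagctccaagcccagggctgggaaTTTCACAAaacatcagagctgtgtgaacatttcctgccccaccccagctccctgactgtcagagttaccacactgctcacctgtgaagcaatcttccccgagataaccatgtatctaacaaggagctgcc
Csf3r (chr4:126024409-126024658, + strand): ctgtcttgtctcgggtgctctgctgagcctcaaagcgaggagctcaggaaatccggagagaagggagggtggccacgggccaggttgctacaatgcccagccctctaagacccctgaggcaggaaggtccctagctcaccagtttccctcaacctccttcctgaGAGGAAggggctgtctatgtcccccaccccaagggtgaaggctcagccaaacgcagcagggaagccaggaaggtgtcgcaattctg
Ngp (chr9:110419558-110419807, + strand): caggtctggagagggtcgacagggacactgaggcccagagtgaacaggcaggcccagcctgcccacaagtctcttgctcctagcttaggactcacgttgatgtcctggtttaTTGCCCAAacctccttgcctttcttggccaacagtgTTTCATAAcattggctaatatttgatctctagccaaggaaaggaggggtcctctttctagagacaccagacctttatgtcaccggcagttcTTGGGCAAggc

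The letters TTNNGNAA were present in the windows of 6 of the 9 members, against 36.8% of 32851 mouse promoter windows of the same 250 bases. Ngp held 3 matches, S100a9 2 and S100a8 1, and the window of Csf3r held none. GAGGAA was present in 4 of 9 members (23.3% of all windows), with 2 matches in S100a8 and 1 in Csf3r. TATAAA was present in 2 of 9 (12.4% of all windows), S100a8 and Ly6g. A match describes the letters only.

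S100a8 and S100a9 encode small calcium-binding proteins that pair as calprotectin, a protein that binds zinc and manganese and signals through Tlr4 and Ager. The genes lie on chromosome 3 (mm10), S100a8 at 90668978 to 90670035 and S100a9 at 90692632 to 90695721 on the opposite strand, with 22596 bases between them, and neither shares exons with another annotated gene. S100a9 (ENSMUSG00000056071) had 45.5, 13.8 and 43.9 CPM in ND 1 to ND 3 and 12.9, 14.6 and 14.8 CPM in HCD 1 to HCD 3. ND 1 and ND 3 were high, and ND 2 lay among the HCD tumours, below HCD 2 and HCD 3, so the diets overlapped. The ND mean was 34.4 ± 17.9 CPM and the HCD mean 14.1 ± 1.06 CPM (SD, n = 3 each), for a log2 fold change of -1.28 ± 0.41 SE. S100a8 (ENSMUSG00000056054) had 16.8, 5.37 and 17.5 CPM in ND 1 to ND 3 and 7.14, 6.81 and 6.33 CPM in HCD 1 to HCD 3. Here ND 2 was the lowest of the 6 libraries. The ND mean was 13.2 ± 6.80 and the HCD mean 6.76 ± 0.405 CPM, for a log2 fold change of -0.96 ± 0.41 SE. The 3 HCD tumours were close to each other for both genes, and the spread within ND came from ND 2 lying apart from the other ND tumours. Averaged over ND 1 and ND 3, S100a9 was 3.17 times and S100a8 2.53 times the HCD mean, whereas ND 2 alone was 0.977 and 0.795 times that mean.

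**Figure D1:**
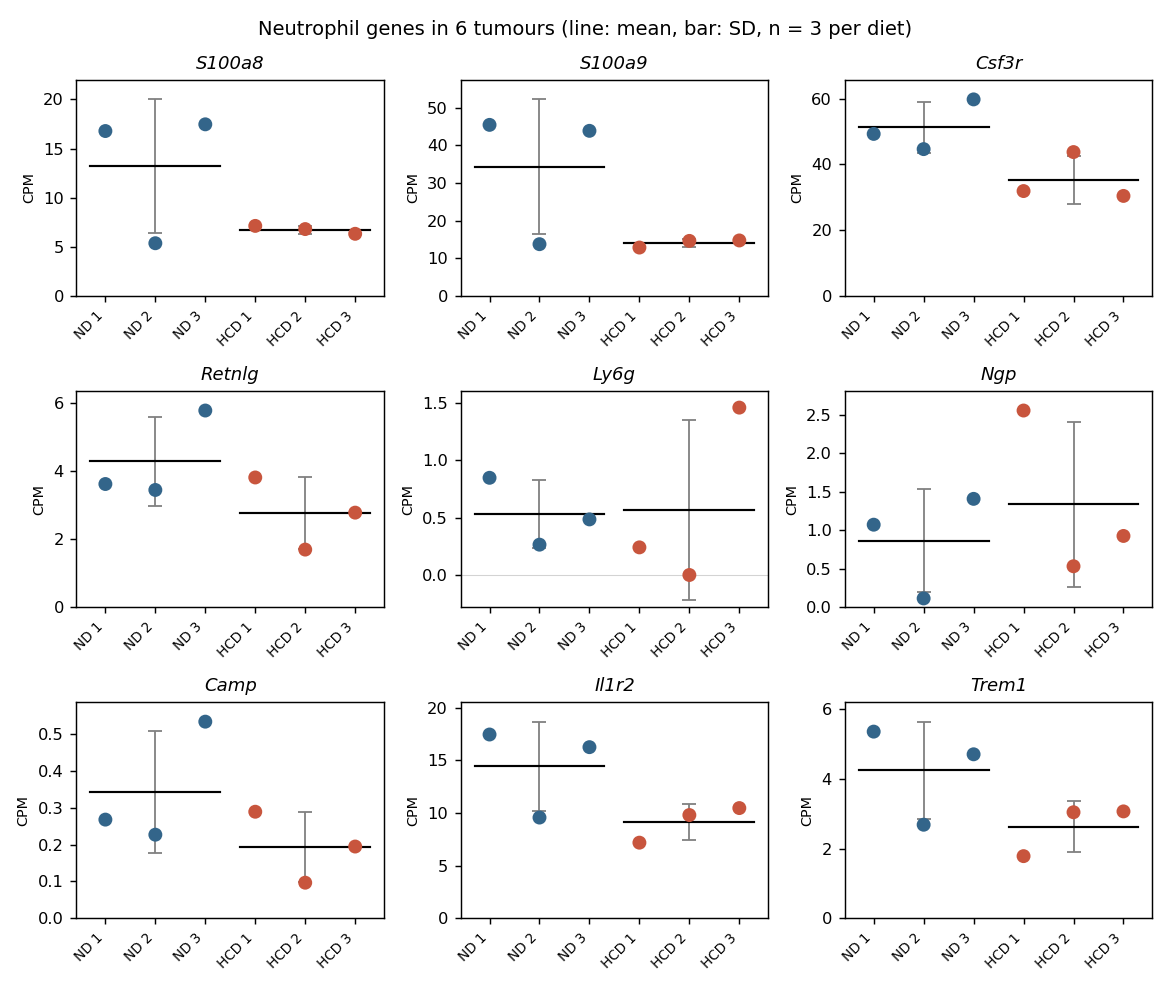
Level (CPM, linear axis) of each of the 9 genes in the 6 libraries, ND in blue and HCD in red, with the mean as a line and the SD as a bar (n = 3 per diet). For S100a8, S100a9, Il1r2 and Trem1, ND 1 and ND 3 stand above the other 4 libraries. Ly6g is highest in HCD 3 and Ngp in HCD 1.

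The ratio between both genes varied less over the libraries than their levels. FPKM scales a count by gene length and library total, so levels of different genes can be compared as far as the lengths used are right. The lengths behind the authors' values were 0.984 kb for S100a8 and 0.728 kb for S100a9, and the size of the ratio depends on them. In FPKM, S100a9 was 3.66, 3.46 and 3.39 times S100a8 in ND 1 to ND 3 and 2.44, 2.90 and 3.15 times in HCD 1 to HCD 3. The ratio averaged 3.51 ± 0.137 in ND and 2.83 ± 0.362 in HCD tumours (SD, n = 3 each), with every ND tumour above every HCD tumour. The lowest ND value was 3.39 and the highest HCD value 3.15. Both genes were chosen with this contrast known, so nothing is read from this order. S100a9 took 73.0% of the counts of both genes in ND 1 (exact Clopper-Pearson 95% interval 70.6 to 75.3%) and 64.3% in HCD 1 (59.5 to 68.9%), the highest and the lowest share. The intervals of ND 2 (67.8 to 75.8%), ND 3 (68.9 to 74.0%), HCD 2 (63.7 to 72.6%) and HCD 3 (65.4 to 74.3%) overlapped each other. These intervals cover counting error only.

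**Figure D2:**
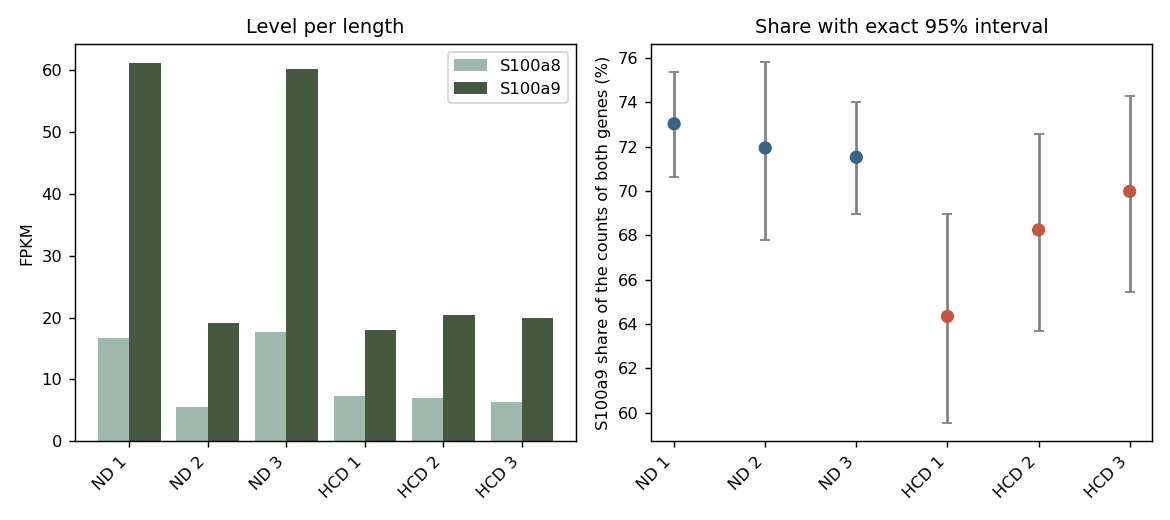
Left, FPKM of S100a8 and S100a9 in each library. Right, share of S100a9 in the counts of both genes with its exact 95% binomial interval (the axis does not start at 0). S100a9 exceeds S100a8 in all 6 libraries, and the share runs from 64.3% in HCD 1 to 73.0% in ND 1.

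Other genes of the S100 family are made by many cell types. S100a11, S100a10 and S100a6 had mean levels of 449, 253 and 226 FPKM over the 6 libraries, against 33.1 FPKM for S100a9 and 10.1 FPKM for S100a8. Their log2 fold changes were -0.15 ± 0.12, 0.02 ± 0.07 and -0.01 ± 0.16 SE, the last 2 with a sign that turned when single libraries were left out. Of 8 tested members of the family other than S100a8 and S100a9, 4 had negative and 4 positive fold changes with a median of 0.01, and 0 passed. S100b, named after its values were seen, had a log2 fold change of -1.26 ± 0.49 SE at 0.241 to 1.29 CPM. Among the receptors named for S100a8 and S100a9, Bsg had a log2 fold change of -0.00408, with a sign that turned under other settings, Tlr4 -0.14 ± 0.12 SE (-0.0343 without ND 1) and the fatty acid and lipoprotein receptor gene Cd36 0.57 ± 0.40 SE (0.17 without HCD 2 and 1.06 without ND 2). Of the 6 genes of that list, 4 were negative and 2 positive, with 0 past the test.

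Csf3r (ENSMUSG00000028859, chromosome 4, 126024550 to 126044440), which encodes the G-CSF receptor, had 49.3, 44.7 and 59.8 CPM in ND 1 to ND 3 and 31.9, 43.8 and 30.4 CPM in HCD 1 to HCD 3. It was the only tested member whose 3 HCD libraries all lay below the 3 ND libraries, by the margin between HCD 2 and ND 2. Over all tested genes 6.36% had this order and 4.75% the opposite one, which 0 members had. The rule used this contrast, so nothing is read from the count of 1 of 8 members. The log2 fold change was -0.53 ± 0.17 SE. Unlike S100a9, Csf3r was not low in ND 2: ND 2 was 1.26 times the HCD mean.

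Il1r2 (ENSMUSG00000026073, chromosome 1, 40074079 to 40125231) encodes the decoy receptor for interleukin 1, which binds the cytokine without signalling. It had 17.5, 9.57 and 16.3 CPM in ND 1 to ND 3 and 7.18, 9.81 and 10.5 CPM in HCD 1 to HCD 3, so ND 2 again lay within the HCD tumours. The log2 fold change was -0.65 ± 0.26 SE. Trem1 (ENSMUSG00000042265, chromosome 17, 48232768 to 48246924), an activating receptor that amplifies inflammatory signals through the adaptor Tyrobp, had 5.36, 2.69 and 4.71 CPM in ND against 1.78, 3.04 and 3.07 in HCD tumours. Its log2 fold change was -0.69 ± 0.35 SE, and ND 2 lay below HCD 2 and HCD 3. The adaptor gene Tyrobp had 14.9, 33.0 and 24.7 CPM in ND against 25.1, 44.8 and 25.4 in HCD tumours, lowest in ND 1, where Trem1 was highest. Of 7 other tested genes of the TREM family and its adaptors, 1 was negative and 6 were positive, with a median of 0.34 and 0 past the test.

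Retnlg (ENSMUSG00000022651, chromosome 16, 48872621 to 48874496) encodes a secreted protein of the resistin family made by granulocytes. It had 3.62, 3.44 and 5.78 CPM in ND against 3.81, 1.69 and 2.78 in HCD tumours, with ND 3 highest and HCD 2 lowest. HCD 1 lay above ND 1 and ND 2, and the log2 fold change was -0.63 ± 0.36 SE. Of the same family, Retnla, a gene of alternatively activated macrophages, had 3.62, 10.8 and 2.52 CPM in ND against 14.5, 11.9 and 1.31 in HCD tumours. Retnlb had 0 counts throughout, and Retn stayed at or under 0.820 CPM.

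Ly6g, Ngp and Camp had the fewest counts. Ly6g (ENSMUSG00000022582, chromosome 15, 75155240 to 75159126) had 19, 7 and 10 counts in ND 1 to ND 3 and 5, 0 and 30 in HCD 1 to HCD 3. The 30 counts of HCD 3 have an exact Poisson 95% interval of 20.2 to 42.8, and that of the 0 counts of HCD 2 reaches up to 3.69 counts. Its log2 fold change of 0.10 ± 1.11 SE has no settled sign, since without HCD 3 it was -2.08. Ly6g has close relatives in the Ly6 cluster, and how the authors' counting shared reads among them is not given. Its relatives Ly6a, Ly6e and Ly6c1 were at 95.6, 68.8 and 38.5 FPKM, against 0.426 FPKM for Ly6g, and of 7 other tested genes of the family 4 were negative and 3 positive, with 0 past the test.

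Ngp (ENSMUSG00000032484, chromosome 9, 110419747 to 110423012) and Camp (ENSMUSG00000038357, chromosome 9, 109847379 to 109849617) encode proteins of the cathelicidin family stored in the granules that form after the primary ones. Ngp had 24, 3 and 29 counts in ND and 53, 11 and 19 in HCD tumours, that is 1.07, 0.113 and 1.41 CPM against 2.56, 0.531 and 0.925 CPM. HCD 1 was highest (Poisson interval of its count 39.7 to 69.3) and ND 2 lowest (0.619 to 8.77). The log2 fold change was 0.65 ± 0.87 SE, and -0.23 without HCD 1. Camp, the cathelicidin gene itself, had 6, 6 and 11 counts in ND and 6, 2 and 4 in HCD tumours, too few for the test. Without the filter on low counts its log2 fold change was -0.79, with Poisson intervals that overlapped between all libraries (0.242 to 7.22 for the 2 counts of HCD 2 and 5.49 to 19.7 for the 11 of ND 3).

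Several primary granule genes, which are transcribed in marrow precursors, were close to the floor and had most counts in HCD 1, the tumour with the highest Ngp. Mpo, the myeloperoxidase gene, had 0, 2 and 5 counts in ND and 22, 0 and 2 in HCD 1 to HCD 3, and the interval of the 22 counts was 13.8 to 33.3. Elane, the neutrophil elastase gene, had 1, 0 and 1 counts in ND and 12, 0 and 0 in HCD tumours (interval of the 12 counts 6.20 to 21.0). Ms4a3, a marker of granulocyte and monocyte precursors, had 0 counts in all ND tumours and 7, 0 and 2 in HCD tumours. HCD 1 was the highest library for all 3 and for Prtn3, with 15 counts there against 14 in ND 2, while Ctsg had 6 counts in both HCD 1 and HCD 2. Some eosinophil granule genes were also highest in HCD 1, where Prg2 had 21 counts against 0 to 7 in the other libraries, Epx 5 against 0 and Ear1 3 against 0. Other eosinophil genes with more counts were not highest there. Ear2 had 8.04, 8.51 and 10.8 CPM in ND 1 to ND 3 against 12.3, 12.2 and 12.8 in HCD 1 to HCD 3. Its log2 fold change was 0.45 ± 0.15 SE and did not pass the test. All HCD tumours lay above all ND tumours, an order that 4.75% of tested genes had. Siglecf had 2.60 CPM in HCD 1 against 2.96 in ND 3, with a log2 fold change of -0.43 ± 0.33 SE. The part of eosinophils in the counts above was not tested. Mpo, Ms4a3, Prg2, Epx, Ear1 and Siglecf were singled out after their values were seen. Ctsc, Serpinb1a and Bpi, the list's 3 tested genes, are also made by other cells and had log2 fold changes of 0.42 ± 0.34, 0.35 ± 0.27 and -0.33 ± 0.55 SE, with 0 past the test. Without HCD 2 the values of Ctsc and Serpinb1a were 0.0802 and 0.0697.

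Seen over the 9 members, ND 3 was the highest library for 4, ND 1 for 3, HCD 1 for 1 and HCD 3 for 1. ND 3 was among the top 2 libraries for 8 of 9 members and ND 1 for 6. ND 2 and HCD 2 were among the top 2 for 0 members, and the lowest library was HCD 1 for 3, HCD 2 for 3, ND 2 for 2 and HCD 3 for 1. The 8 tested members had 6 negative and 2 positive fold changes, with a median of -0.64. Over all 15539 tested genes the median was 0.01, 47% of fold changes were negative and 0.747% were -1 or lower, a size that S100a9 alone of the members had. A fold change of 1 or higher was found for 1.08% of tested genes and 0 members. The set was chosen with this contrast in view, so nothing is read from the difference between these medians.

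The weight of single libraries differed between members. For S100a9, S100a8, Il1r2 and Trem1 the largest shift came from leaving out ND 2, which moved the log2 fold change to -1.66, -1.34, -0.88 and -0.93. In that fit edgeR called 2 of 15865 genes lower (0.0126%), S100a9 and the protease inhibitor gene A2m, both with an adjusted p of 0.0399. With all 6 libraries the edgeR adjusted p of S100a9 was 0.839. S100a9 was chosen with this contrast known, and ND 2 is the ND tumour whose S100a9 level lay among the HCD tumours. The call without ND 2 therefore supports nothing. No other fit without a library called any gene. For Csf3r the largest shift came from HCD 2 (log2 fold change -0.71 without it), and for Retnlg from HCD 1 (-0.93 without it, against -0.36 without ND 3 and -0.37 without HCD 2). For Ngp and Ly6g leaving out 1 library turned the sign, as given above. Without ND 1 the fold changes of S100a9 and S100a8 were -1.03 and -0.75, and without ND 3 -1.07 and -0.71. Leaving out HCD 1, HCD 2 or HCD 3 kept S100a9 between -1.32 and -1.22. The median over the tested members ran from -0.82 without ND 2 to -0.49 without ND 3.

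**Figure D3:**
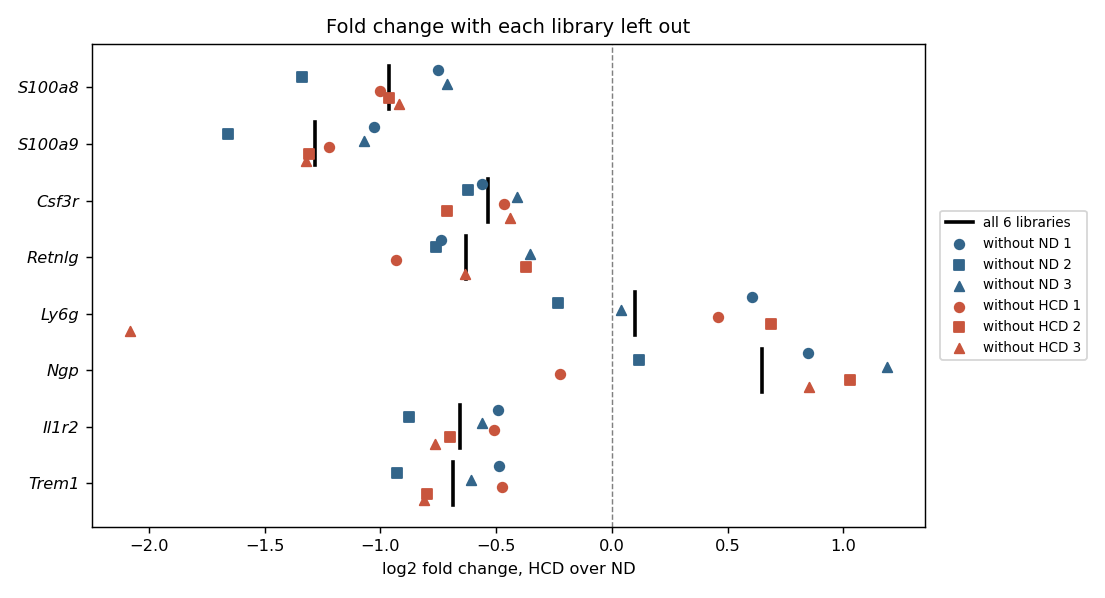
Log2 fold change (HCD over ND) of the 8 tested members with all 6 libraries (black line) and with each library left out (points, ND in blue and HCD in red). S100a9 and S100a8 are farthest left without ND 2, at -1.66 and -1.34. Ly6g moves to -2.08 without HCD 3.

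Other genes of mature neutrophils were mixed. Of 17 tested genes of this list, 12 had negative and 5 positive fold changes, with a median of -0.26, and 0 passed (smallest adjusted p 0.839). Cxcr2, the receptor for the chemokines that recruit neutrophils, had 17.1, 7.19 and 13.3 CPM in ND against 7.04, 6.91 and 6.28 in HCD tumours, which gives a log2 fold change of -0.90 ± 0.30 SE. All 3 HCD tumours lay below ND, with ND 2 only just above them. Asprv1, a retroviral-like protease gene of skin that neutrophils also make, had 3.53, 0.983 and 5.05 against 0.675, 0.821 and 1.12 CPM, a log2 fold change of -1.86 ± 0.59 SE. Gm5483, of the stefin A cluster of protease inhibitor genes, the histidine decarboxylase gene Hdc and the lectin receptor gene Clec4e, named after their values were seen, had -1.43, -0.77 and -0.80. Hdc had -0.38 without ND 3 and Clec4e -0.47 without HCD 1. Next come the genes of the list with the highest levels per length. Fcgr4, an Fc receptor also present on macrophages, had 14.96, 49.2 and 40.2 CPM in ND against 31.0, 81.6 and 48.0 in HCD tumours, which gives a log2 fold change of 0.62 ± 0.49 SE (0.19 without HCD 2). Padi4, an enzyme that citrullinates histones, had -0.26 ± 0.12 SE, G0s2 -0.28 ± 0.13 SE, Mxd1 -0.66 ± 0.28 SE, Msrb1 0.13 ± 0.11 SE and the protease inhibitor gene Slpi 1.39 ± 0.64 SE. Mxd1 had -0.39 without ND 3, Msrb1 0.0614 without ND 1 and Slpi 0.90 without HCD 1. Fpr1 and Fpr2, receptors for bacterial formyl peptides, were both highest in HCD 2, at 10.5 and 13.7 CPM, and were named after their values were seen.

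The genes of the later granules had 9 negative and 3 positive fold changes among 12 tested genes other than the members, with a median of -0.52, and 0 passed (smallest adjusted p 0.839). Lcn2, which encodes an iron-siderophore binding protein, had 6.70, 1.32 and 8.93 CPM in ND against 2.46, 1.16 and 1.61 in HCD tumours, with ND 1 and ND 3 high and ND 2 below HCD 1 and HCD 3. Its log2 fold change was -1.69 ± 0.67 SE. Cd177, a neutrophil surface glycoprotein gene, had 7.90, 1.66 and 3.30 against 1.83, 1.93 and 0.877 CPM, a log2 fold change of -1.47 ± 0.60 SE (-0.675 without ND 1). Lcn2 and Cd177 were named after their values were seen. By level per length the list was led by Cyba and Cybb, the subunits of the phagocyte oxidase that macrophages share, with log2 fold changes of 0.65 ± 0.36 and 0.60 ± 0.38 SE, and then by Pglyrp1 (-0.00427), Hp (-0.73 ± 0.32 SE, and -0.48 without HCD 3), the gelatinase gene Mmp9 (-0.54 ± 0.31 SE, and -0.17 without ND 1) and Chil3 (-0.62 ± 0.59 SE, and 0.42 without ND 3). Without HCD 2 the values of Cyba and Cybb were 0.32 and 0.21. Among granulocyte transcription factors, Cebpe, which drives the later granule genes, had at most 0.337 CPM, and Cebpb, Spi1 and Cebpa were at 13.9, 7.08 and 6.93 FPKM. Of the 6 tested factors, 2 were negative and 4 positive with a median of 0.08 and 0 past the test.

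Some ligands that act on neutrophils were, like S100a9, high in ND 1 and ND 3. Csf3, which encodes G-CSF, had 21, 2 and 18 counts in ND 1 to ND 3 and 2, 1 and 3 in HCD 1 to HCD 3. ND 1 and ND 3 stood apart (the Poisson interval of the 18 counts of ND 3 was 10.7 to 28.4, against an upper bound of 8.77 for the 3 counts of HCD 3), and ND 2 lay with the HCD tumours. The gene had too few counts for the test. Cxcl1, a ligand of Cxcr2, had 14.7, 6.47 and 9.12 CPM in ND against 6.03, 4.78 and 6.33 in HCD tumours, which gives a log2 fold change of -0.82 ± 0.31 SE with no overlap (-0.45 without ND 1). Cxcl2, another such ligand, had 24.9, 11.01 and 35.0 against 7.67, 16.1 and 15.6 CPM, a log2 fold change of -0.84 ± 0.45 SE (-0.45 without ND 3). Csf3, Cxcl1 and Cxcl2 were named after their values were seen. The list's most abundant genes, Kitl, Cxcl15 and Cxcl3, had log2 fold changes of -0.07 ± 0.07, 0.41 ± 0.44 and -0.12 ± 0.13 SE. With 1 library left out, Kitl ran from -0.12 to -0.0339, Cxcl15 from 0.0715 to 0.71 and Cxcl3 from -0.25 to -0.0388. In all, 6 of 9 tested genes were negative and 3 positive, with a median of -0.12 and 0 past the test.

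Of the interleukin 1 family, Il1b, the ligand that Il1r2 captures, had 43.2, 23.6 and 54.9 CPM in ND against 14.9, 28.2 and 23.4 in HCD tumours. ND 2 lay between HCD 3 and HCD 2, and the log2 fold change was -0.87 ± 0.34 SE. The signalling receptor gene Il1r1 had -0.34 ± 0.18 SE (-0.13 without ND 1) and Il33 -0.11 ± 0.13 SE. Of 9 tested genes other than Il1r2, 6 were negative and 3 positive, with a median of -0.14 and 0 past the test (smallest adjusted p 0.839).

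**Figure D4:**
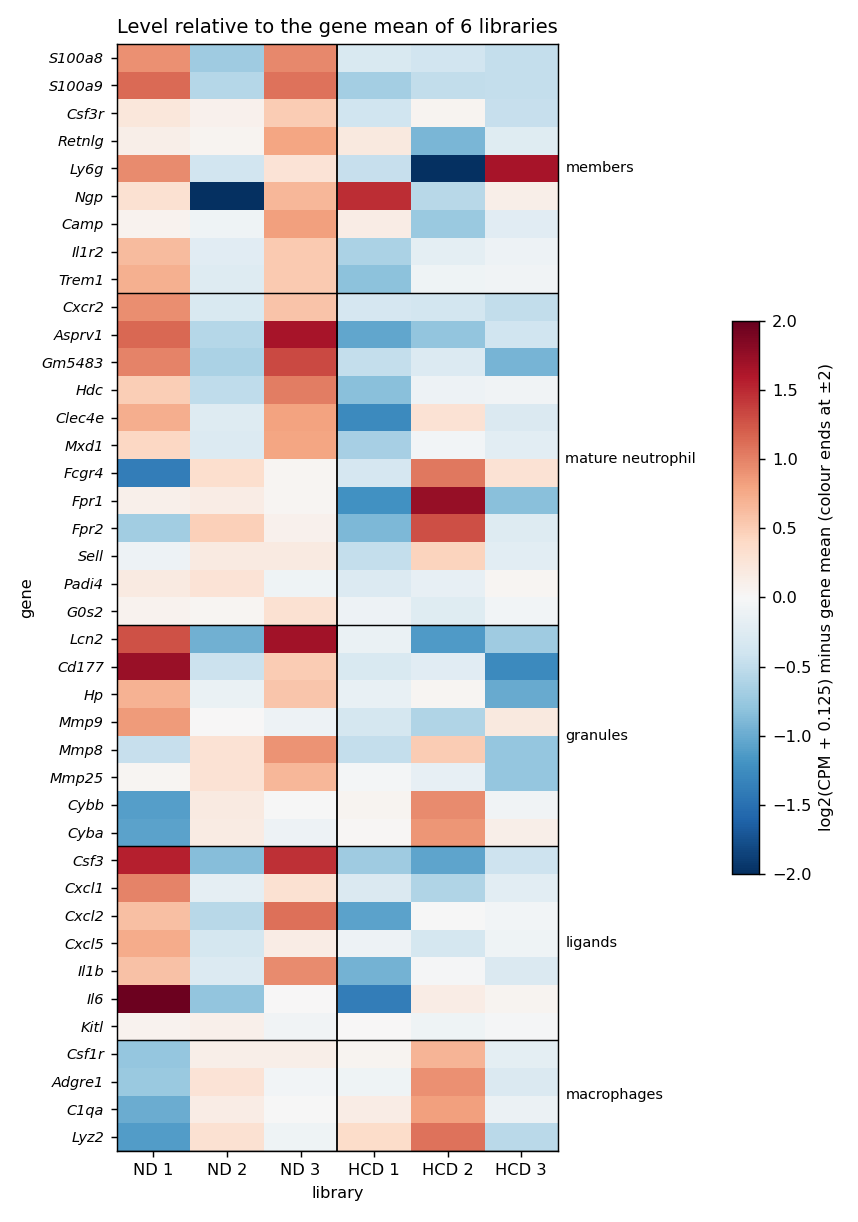
Level of each gene in each library as log2 of CPM plus the prior count relative to its 6-library average (red above, blue below, colour ends at ±2). Genes beyond the 9 members were picked for display after their values were seen. ND 1 and ND 3 are red and ND 2 blue for S100a9, Cxcr2, Asprv1, Lcn2 and Csf3, while ND 1 is blue and HCD 2 red for Cybb, Fcgr4 and the macrophage genes.

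Summed marker levels of several other cell types shared an order of libraries. ND 1 was the lowest library for macrophage, T cell, mast cell and eosinophil, red cell, platelet and pigment cell genes, and HCD 2 the highest for all of these but the red cell genes. The 14 monocyte and macrophage genes, all tested, had 13 positive and 1 negative fold changes (median 0.36, 0 past the test), and their summed level was 567, 1146 and 980 CPM in ND against 1070, 1795 and 841 in HCD tumours. S100a9 was highest in ND 1, where this sum was lowest. The 8 T cell genes were all positive (median 0.72, 0 past the test), with a summed level of 19.7, 68.8 and 85.5 CPM in ND against 95.03, 140 and 56.5 in HCD tumours, and mast cell and eosinophil genes had 6 positive and 1 negative of 7 tested, with 0 past the test. Keratinocytes, which make S100a8 and S100a9 in inflamed skin, had marker genes summing to 9.51 to 14.3 CPM in 5 libraries and to 61.8 CPM in HCD 3. In HCD 3 Krt14 was at 13.4, Krt6a at 10.8 and Krt6b at 8.67 CPM (Krt6a and Krt6b were named after their values were seen), Lor had 0 counts in every library, and the 4 tested genes of 13 were positive with 0 past the test. Among the HCD tumours, HCD 3 had the lowest S100a8 and the highest S100a9 level. Red cell genes summed to 43.3, 134 and 71.3 CPM in ND against 57.7, 90.7 and 191 in HCD tumours, highest in HCD 3 (1 negative and 5 positive of 6 tested). Platelet genes summed to 23.5 to 38.1 CPM (1 negative and 2 positive of 3 tested), and 0 genes of either list passed. The part of these cells in the levels of the members was not tested.

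The genes whose order over the 6 libraries was nearest to that of S100a9 were sought among 12766 tested genes whose mean level over both diets reached 1 CPM (members and genes with Gm or Rik names left out), by the root mean square difference of centred log2 levels. S100a8, a member, had a difference of 0.195, and Csf3r one of 0.574. The nearest other genes were Acsbg1 (0.203), an acyl-CoA synthetase gene, A2m (0.210), Ptprn (0.229), R3hdml (0.231), the cytokine gene Il11 (0.238), Cxcr2 (0.290), Asprv1 (0.305) and the zinc importer gene Slc39a10 (0.307). Acsbg1 had 77.5, 31.7 and 70.8 CPM in ND against 25.4, 34.6 and 31.0 in HCD tumours, and Il11 had 9.15, 2.08 and 7.47 against 1.98, 2.61 and 3.70 CPM. Of the 8, Cxcr2 and Asprv1 were on the neutrophil lists. Nearest to Csf3r were AI661453 (0.0886), Bfsp1 (0.0912), Meis1 (0.108) and RP24-430K15.4 (0.110), and none of these was on a neutrophil list. These distances over 6 libraries are a description.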

How the data were processed

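For 34745 genes and 6 libraries the deposited table gives whole-number counts and, beside them, FPKM values made by the authors, per the file headers. Per the submitters' processing notes, the tools were CASAVA 1.8, TopHat2 2.0.9, HTSeq and edgeR and the build mm10; their roles are not stated. Annotation release, strandedness and the handling of multiply matching reads are not given in the sources used here. Columns were assigned by diet and number.

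Diets were compared with edgeR 4.0.16, quasi-likelihood F-test (R 4.3.3, legacy form, TMM, diet as the only term, minimum count 10, minimum total 15, prior count 0.125), with Benjamini-Hochberg adjustment over all tested genes at 0.05, checked on simulated data. Standard errors are the fold change over the root of F. Of the 9 members 8 passed the filter, Ly6g and Ngp with few counts, and Camp did not. Positions and exon overlaps are from GENCODE M21 (mm10).

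The members and lists were chosen with earlier results of these data known. Text genes were the members, the 3 genes of each list with the highest mean FPKM (6 for granule and mature neutrophil lists), and the genes nearest to S100a9 and Csf3r. Genes outside this rule were named after their values were seen, whether or not the text marks them, among them Cebpe, Retnlb, Lor, Tyr, Dct, Mlana, Oca2 and Tyrp1. No member was tested between the diets as evidence. Alternatives were DESeq2 1.42.0, limma 3.58.1 on voom values and on log2(FPKM + 1) or log2(FPKM + 0.1), other size factors and filters, adjusted deviances, the replicate number as a block and each library left out.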

Additional observations from a re-analysis of the deposited data

How the results depend on the processing

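No gene passed under any change of size factors or filter, with limma (smallest adjusted p 0.0697, on log2(FPKM + 1)) or with edgeR's adjusted deviances (0.0939), and none at a threshold of 0.1 in the edgeR fit of the report. DESeq2 called 6 genes, and the count ran from 0 to 2 over the fits without 1 library. The labels do not say whether the replicate numbers pair the tumours. Deviations of same-numbered libraries correlated at -0.30, 0.14 and 0.08, and ND 1 went best with HCD 3 (0.54). With 3 libraries per diet these correlations cannot decide whether the numbers pair tumours. With the number as a block 0 genes passed and the median over the members was -0.65. The median kept its sign in every fit, from -0.82 to -0.47, though not always over the same members. Some filters removed Ly6g and Ngp, the members with positive fold changes in the edgeR fit of the report. Only members negative in that fit were then left, so those medians do not check the sign. Both ends of the range came from fits that kept Ly6g and Ngp. Of 56 fold changes refitted, those below turned sign, and the cause was not tested. Ly6g had -1.22 with limma-voom, -0.0404 with log2(FPKM + 1) unfiltered, -0.58 with the block, and -2.08 to 0.69 without 1 library. Ngp ran from -0.23 to 1.19, S100a10 from -0.0412 to 0.0692, S100a6 from -0.14 to 0.0948, Bpi from -0.73 to 0.0814, Pglyrp1 from -0.211 to 0.212, Chil3 from -0.98 to 0.42, Bsg from -0.02998 to 0.028 and Il33 from -0.24 to 0.000341. With limma on FPKM, S100a6 had 0.006742 (0.006797 with a pseudocount of 0.1) and Bsg 0.009087 (0.009146). Camp has no fold change in the filtered fits. Ly6g and Ngp have none with the filter of 1 CPM, and Ly6g, Ngp and Trem1 have none in the limma fits filtered by FPKM. Camp had 35 counts in all and Ly6g 71, so their values have wide counting intervals.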

Other observations

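Slpi had 2.41, 8.25 and 3.93 CPM in ND 1 to ND 3 and 20.1, 14.2 and 4.09 CPM in HCD 1 to HCD 3; ND 2, low in S100a9, was the highest of the ND tumours. Wfdc21, Mrgpra2b and Cxcr1, low-count genes of mature neutrophils, were lower in every HCD tumour than in every ND tumour and had too few counts for the test. Over all tested genes 6.36% had this order, but these untested genes are not among them. No share was computed for genes with so few counts, and nothing is read from the order of these picked genes. Wfdc21 had 6, 13 and 11 counts in ND and 1 count in each HCD tumour, Mrgpra2b had 8, 11 and 22 against 1, 4 and 0, and Cxcr1 had 7, 3 and 4 against 1, 0 and 1. Stfa2l1, of the stefin A cluster, followed S100a9 instead, with 30, 8 and 43 counts in ND and 8, 6 and 5 in HCD tumours. These 4 genes were picked after their values were seen. The list's other untested genes did not all go the same way. Mrgpra2a had 1, 3 and 8 counts in ND and 0, 1 and 0 in HCD tumours. Stfa2 had 0, 0 and 1 against 0, 0 and 4. Stfa3 had 0, 0 and 0 against 0, 0 and 4, and BC100530 had 1 count, in HCD 3.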
